A study of Rattus norvegicus with 15 samples.

Results

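H9c2 myoblasts cultured for 14 days with retinoic acid (T14+RA) were compared with cultures kept for 7 days without it (T7-RA). The comparison asks which genes still differ when treated cells are set against an earlier untreated time, so that a slower course under retinoic acid is allowed for. It rests on 6 of the 15 RNA-seq libraries, 3 per group, chosen by their labels, and on all 11574 genes of the deposited table. H9c2 is a rat line from embryonic ventricle, and every library is labelled wild type and myoblast. All cultures of both groups were kept in low serum. T14+RA cultures received 1 µM all-trans retinoic acid daily, dissolved in DMSO, and the sources used here do not say whether T7-RA cultures received DMSO. The remaining groups were T0 (day 0, untreated), T14-RA (day 14, untreated) and T7+RA (day 7, treated). By the study's methods serum was lowered only after the cells had attached, which is when T0 was taken. T0 therefore differs from the later groups in exposure to low serum as well as in time. Since T14+RA and T7-RA differ in both day and treatment, time and retinoic acid cannot be told apart in this contrast alone. The other groups are therefore given beside it. All libraries come from 1 cell line, so the replicates are cultures and not animals. The cell line entry of the labels counts upward from sample to sample (H9c2, H9c3 and so on), while every title names H9c2, and the titles were followed.

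Retinoic acid is the active form of vitamin A and acts through nuclear receptors (RAR, paired with RXR) that bind repeated hexamers in DNA and switch genes on or off. Cells answer it by raising enzymes that clear it or store its precursor, such as CYP26 hydroxylases and DHRS3. Myoblasts in low serum leave the cell cycle, fuse and build sarcomeres, the repeating actin and myosin units of striated muscle.

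Of 11574 genes, 915 (7.91%) were called at an edgeR adjusted p under 0.001, 465 of them higher in T14+RA (4.02%) and 450 lower (3.89%). Expression is given in CPM, a gene's share of the counts of its library scaled by TMM factors. The CPM values did not overlap between the 3 cultures of each group for 913 of the 915, against a background of 3803 of all genes (32.9%). The calls rest on these same cultures, so the separation follows from the selection and adds no support. The number called was 293 in edgeR's test against a change of 1.5 times and 317 with limma on quantile-normalized values. Among the called genes, 534 differed at least 2 times. The median log2 fold change was 1.14 for those higher and -1.15 for those lower, and -0.00 over all genes. For 6262 genes the 95% interval of the log2 fold change lay within 1 either way, so a change of more than 2 times was outside the interval for these genes. The counts per library were 666344 to 825712 in T7-RA and 544558 to 1030820 in T14+RA, which limits what can be seen of genes of low level. Within the compared groups the cultures T14+RA 2 and 3 differed the most from each other.

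**Figure D1:**
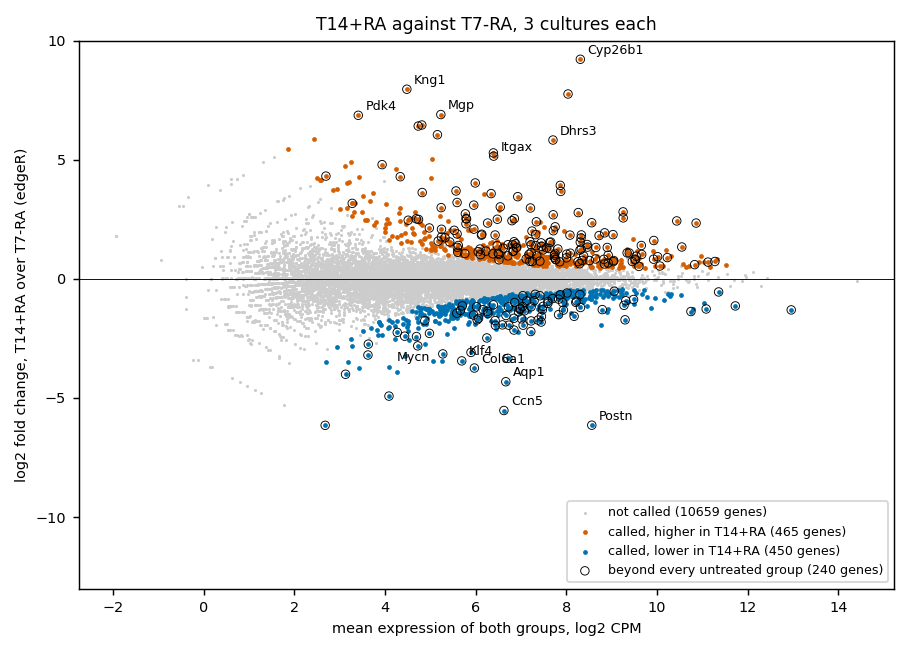
Log2 fold change of T14+RA over T7-RA (vertical, edgeR) against the mean expression of both groups in log2 CPM (horizontal), 1 dot per gene. Orange marks the 465 genes called higher, blue the 450 called lower, and black rings the 240 that also lay beyond all 3 untreated groups. Cyp26b1 stands highest and Postn is among the lowest.

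The same genes were set beside the other contrasts, which share libraries with this one and are therefore no independent evidence. Over the 465 genes called higher the median log2 fold change was 1.14 for T14+RA over T7-RA, 0.40 for T14-RA over T7-RA and 0.69 for T14+RA over T14-RA. Over the 450 called lower the medians were -1.15, -0.43 and -0.62. A gene was put beyond every untreated group when T14+RA differed from T0, T7-RA and T14-RA in 1 direction and the largest of the 3 p-values passed the adjusted threshold. This held for 240 genes (2.07% of those tested), of which 155 (1.34%) were above all 3 untreated groups and 85 (0.734%) below them.

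Enzymes of retinoid turnover headed the genes that were higher. Cyp26b1 (ENSRNOG00000015076, band 4q34), which hydroxylates retinoic acid for removal, had 2.39, 0 and 0 CPM in T7-RA cultures 1 to 3 and 648, 655 and 596 CPM in T14+RA cultures 1 to 3. Every treated culture was far above every untreated one, and T0 and T14-RA were as low as T7-RA (2.46 ± 2.81 and 1.13 ± 1.96 CPM, SD, n = 3 each). Because T7-RA held so few reads, the size is given as a ratio of group CPM, 724 with a 95% counting interval of 199.99 to 5982 (edgeR adjusted p = 1.08e-36). The untreated reads of Cyp26b1 were too few to pass the filter on summed counts, so it entered only through treated cultures. Its p-value, its ratio and its place above the untreated groups are therefore descriptive. Dhrs3 (ENSRNOG00000015736, band 5q36), which reduces retinal to retinol, stood at 7.16, 5.38 and 8.71 CPM in T7-RA and 422, 432 and 377 CPM in T14+RA. That is a rise of 5.83 on the log2 scale with a standard error (SE) of 0.21 (edgeR adjusted p = 1.91e-33), and it too lay above every untreated group. Rdh5, a retinol dehydrogenase, was higher as well, at 7.16, 0 and 5.81 CPM against 28.9, 50.3 and 29.0 CPM (log2 fold change 2.96 ± 0.45, the ± of a fold change being its SE, edgeR adjusted p = 4.86e-07). Unlike the other enzymes it also showed 19.2 ± 6.43 CPM in T14-RA (SD, n = 3) and was not beyond the untreated groups. In the list of retinoid metabolism and binding 3 of the 16 genes analysed were higher and 0 lower, with a median log2 fold change of 0.08. The 13 others included Rdh10, the main retinol oxidising enzyme of embryos (-0.42, 95% interval -1.78 to 0.94), and Aox1 (0.73, 0.14 to 1.32).

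Of the nuclear receptors and their partners, 1 of the 17 genes analysed was higher and 0 lower, against 7.91% called over all genes. The gene called was Nr2f1, an orphan receptor (COUP-TF1), with 29.8, 26.9 and 23.2 CPM in T7-RA and 67.5, 81.7 and 65.3 CPM in T14+RA. It also exceeded T14-RA (23.3 ± 3.27 CPM, SD, n = 3), and its log2 fold change was 1.40 ± 0.25 (edgeR adjusted p = 7.36e-06). The receptors themselves did not pass: Rara had a log2 fold change of -0.27 (95% interval -0.70 to 0.16), Rarg 0.28 (-0.03 to 0.59) and Rxra -0.23 (-0.67 to 0.21). For these 3 genes a rise of more than 2 times lay outside the interval.

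The promoters of the genes with the greatest change or the lowest p (41 genes, of which RefSeq promoters of the GRCr8 build gave 31 entries for the 29 genes matched by symbol) were searched for the hexamer AGGTCA on either strand and for its direct repeat with 5 bases between copies, the DR5 form of a retinoic acid response element. Of the 29 genes, 6 (20.7%) held at least 1 hexamer, beside 4645 of the 27457 symbols with a promoter entry of the same length (16.9%). Mamdc2 and Cav1 have 2 entries each, and those of Mamdc2 overlap and share 1 hexamer. The direct repeat was in 0 of the 29 genes and in 3 of the 27457. At that rate 0 was nearly certain for 29 genes, so nothing follows from it. Only exact copies of the hexamer within the windows were searched, so inexact or more distant elements would be missed. The match is of letters and not of a measured binding site. The windows of 4 genes that were above every untreated group are printed to show where the letters stand. Each runs 5′ to 3′ from 250 bases before to 50 after the RefSeq start, with the hexamer on either strand in capitals. Cyp26b1 (chr4:118616127-118616426, minus strand) and Dhrs3 (chr5:162031603-162031902, plus strand) hold none, whereas Itgax (chr1:192149799-192150098, plus strand) and Ldhb (chr4:177177359-177177658, minus strand) each hold 1 on the opposite strand, which reads TGACCT here and starts 24 and 137 bases before the start.
Cyp26b1: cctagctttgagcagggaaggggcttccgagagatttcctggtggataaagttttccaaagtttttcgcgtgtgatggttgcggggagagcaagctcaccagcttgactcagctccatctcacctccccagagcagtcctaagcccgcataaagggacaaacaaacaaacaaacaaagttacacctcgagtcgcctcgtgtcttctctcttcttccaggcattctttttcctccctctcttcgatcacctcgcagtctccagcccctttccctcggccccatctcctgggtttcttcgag
Dhrs3: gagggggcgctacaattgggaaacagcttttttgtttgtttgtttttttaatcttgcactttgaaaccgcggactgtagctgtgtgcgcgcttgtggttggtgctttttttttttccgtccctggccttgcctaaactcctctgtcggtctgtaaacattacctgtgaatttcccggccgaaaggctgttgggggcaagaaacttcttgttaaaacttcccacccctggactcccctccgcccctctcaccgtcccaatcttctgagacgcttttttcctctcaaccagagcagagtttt
Itgax: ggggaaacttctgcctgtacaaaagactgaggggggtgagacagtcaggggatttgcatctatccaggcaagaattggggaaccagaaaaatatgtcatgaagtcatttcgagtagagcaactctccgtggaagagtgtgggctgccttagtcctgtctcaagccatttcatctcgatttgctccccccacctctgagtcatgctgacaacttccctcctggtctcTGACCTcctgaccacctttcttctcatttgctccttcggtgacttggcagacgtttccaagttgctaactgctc
Ldhb: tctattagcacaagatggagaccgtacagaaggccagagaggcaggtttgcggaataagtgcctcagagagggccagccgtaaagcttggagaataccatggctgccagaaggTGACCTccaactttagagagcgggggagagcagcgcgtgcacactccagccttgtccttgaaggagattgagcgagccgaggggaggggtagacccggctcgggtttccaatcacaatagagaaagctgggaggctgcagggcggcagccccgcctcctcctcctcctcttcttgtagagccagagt

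Several secreted and membrane proteins rose from near 0. Kng1, kininogen, had 0 counts in all 9 untreated libraries and 51.1, 50.3 and 32.6 CPM in T14+RA. Set against the floor of 3 counts over the group, it was at least 35.0-fold higher than in T7-RA (edgeR adjusted p = 1.94e-12). Pdk4, the kinase that turns down pyruvate dehydrogenase, was likewise at 0 in T0, T7-RA and T14-RA. It was also at 0 in T7+RA and reached 20.3, 23.6 and 19.9 CPM in T14+RA, at least 16.0-fold above T7-RA (edgeR adjusted p = 2.9e-07). Kng1 and Pdk4 were thus seen in day 14 treated cultures but hardly or not at all in day 7 treated ones. With 0 untreated counts, both could pass the filter on summed counts only through treated cultures, and Pdk4 only through T14+RA. Their p-values and fold changes are therefore descriptive.

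Mgp, the matrix Gla protein that keeps tissue from calcifying, rose from 0, 0 and 1.45 CPM to 65.6, 102 and 56.2 CPM (ratio 167, 95% counting interval 29.6 to 6652, edgeR adjusted p = 1.74e-15). Mill1, an MHC class I-like protein, went from 1.19, 0 and 1.45 CPM to 72.3, 62.9 and 76.1 CPM (ratio 80.1, interval 21.8 to 668). Mcpt8l2, a mast cell protease family member, went from 1.19, 0 and 0 CPM to 47.3, 56.6 and 63.5 CPM (ratio 123, interval 21.6 to 4878). All 3 were above every untreated group, but Mill1 and Mcpt8l2 have close relatives in the rat genome with which reads may be shared. Ptp4a3, a phosphatase, had 0, 0 and 1.45 CPM in T7-RA and 55.9, 55.01 and 47.1 CPM in T14+RA (ratio 121, interval 21.4 to 4838). The T7-RA reads of Mgp, Mill1, Mcpt8l2 and Ptp4a3 alone could not have passed the filter on summed counts. Their ratios and p-values are therefore descriptive as well. Mamdc2, a secreted protein, stood at 3.58, 1.34 and 7.26 CPM against 144, 181 and 167 CPM, and Itgax, the integrin αX chain, at 4.77, 4.03 and 4.36 CPM against 157, 156 and 179 CPM. Their log2 fold changes were 5.29 ± 0.30 and 5.16 ± 0.29 (edgeR adjusted p = 4.93e-23 and 5.03e-23). Itgax is best known from dendritic cells and macrophages. Of 8 leukocyte markers, Ptprc, Cd68, Csf1r, Adgre1, Itgam, Lyz2 and Aif1 were not among the genes analysed, and Cd14 had 16.7 to 29.6 CPM in T7-RA and 37.6 to 58.1 CPM in T14+RA. Its part in the Itgax, Mill1 and Mcpt8l2 values was not tested. In bulk RNA a change in the number of cells of a type and a change in RNA per cell cannot be told apart.

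**Figure D2:**
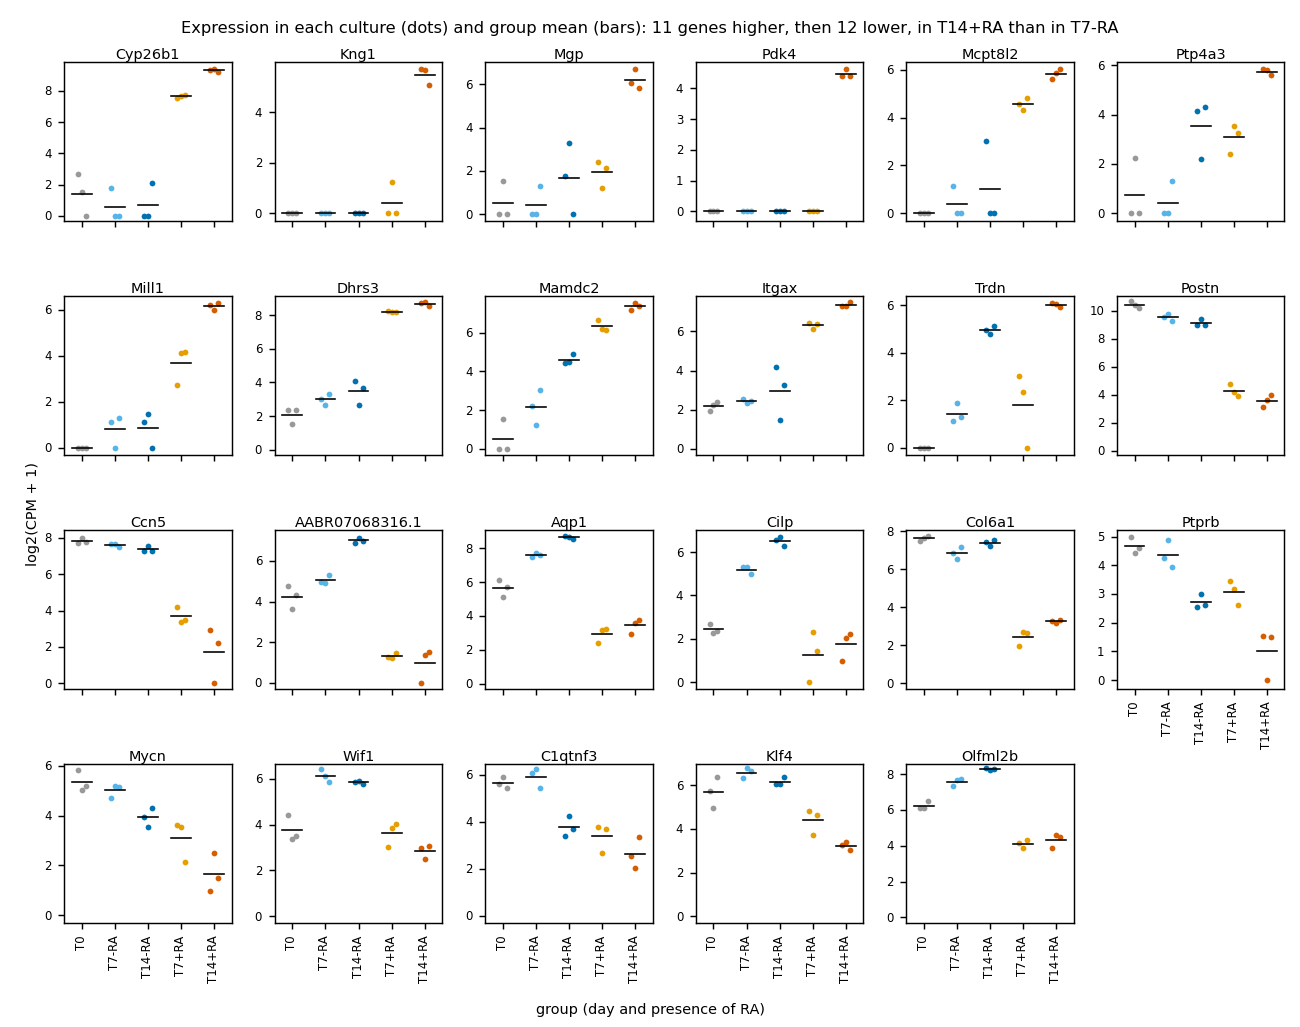
Expression as log2(CPM + 1) in each culture (dots) and the group mean (bars) for 11 of the 12 genes most higher and the 12 most lower in T14+RA than in T7-RA, with T0, T14-RA and T7+RA beside them. Pdk4 and Kng1 are at or near 0 outside T14+RA, whereas Postn, Ccn5 and Col6a1 are low in both treated groups.

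Extracellular matrix genes led those that were lower. Postn, periostin, a matrix protein of activated fibroblasts and developing heart valves, had 757, 864 and 611 CPM in T7-RA and 7.72, 11.0 and 14.5 CPM in T14+RA. On the log2 scale it changed by -6.14 ± 0.23 (edgeR adjusted p = 2.34e-21), and T14-RA still had 563 ± 106 CPM (SD, n = 3). Ccn5, a matricellular protein that restrains growth of smooth muscle, fell from 198, 204 and 179 CPM to 6.75, 0 and 3.63 CPM (-5.53 ± 0.28, edgeR adjusted p = 1.87e-25). Both genes were low in every treated culture and high in every untreated one. Col6a1 and Col6a2, chains of collagen VI, lie together at band 20p12. Col6a1 went from 116, 91.4 and 144 CPM to 8.68, 7.86 and 9.06 CPM in T14+RA, with log2 fold changes of -3.74 ± 0.26 for Col6a1 and -2.48 ± 0.23 for Col6a2 (edgeR adjusted p = 6.02e-19 and 5.01e-14). In T14-RA both were at or above the T7-RA level (169 ± 18.9 and 179.7 ± 11.8 CPM, SD, n = 3).

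Some genes fell although they rose between T7-RA and T14-RA. Aqp1, the water channel aquaporin 1, had 175, 209.6 and 193 CPM in T7-RA, 426, 407 and 371 CPM in T14-RA and 6.75, 11.0 and 12.7 CPM in T14+RA. Cilp, a cartilage matrix protein, went from 35.9 ± 4.68 CPM to 2.58 ± 1.42 CPM, against 89.9 ± 12.6 CPM in T14-RA (SD, n = 3). Olfml2b, a secreted olfactomedin protein, showed 189.6 ± 24.1, 19.6 ± 5.37 and 309.7 ± 12.2 CPM in the same order. In these 3 genes T14+RA lay on the opposite side of T7-RA from T14-RA, and the log2 fold changes over T7-RA were -4.32, -3.89 and -3.34 (edgeR adjusted p = 4.64e-24, 3.96e-10 and 6.17e-22). The processed transcript AABR07068316.1 had 29.8, 29.6 and 39.2 CPM in T7-RA and 0, 1.57 and 1.81 CPM in T14+RA, so T7-RA was 36.2 times higher (95% counting interval 9.69 to 305), and T14-RA had 129 ± 11.7 CPM. C1qtnf3 and Ptprb, a secreted C1q-family protein and a receptor phosphatase of vessels, were lower than in T7-RA in both day 14 groups by group mean. C1qtnf3 had 60.5 ± 16.5 CPM in T7-RA, 13.1 ± 4.18 CPM in T14-RA and 5.68 ± 3.05 CPM in T14+RA, and Ptprb 20.2 ± 7.14, 5.66 ± 1.24 and 1.25 ± 1.08 CPM.

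Transcription and signalling genes were also among the lowest. Klf4, a zinc finger factor that keeps cells undifferentiated, had 78.7, 108 and 98.8 CPM in T7-RA and 8.68, 9.43 and 7.25 CPM in T14+RA (log2 fold change -3.44 ± 0.30, edgeR adjusted p = 1.48e-14). Mycn, a growth-promoting factor, had 25.1, 34.9 and 34.9 CPM and 0.965, 4.71 and 1.81 CPM (-3.69 ± 0.49, edgeR adjusted p = 1.36e-08). Wif1, an inhibitor of Wnt ligands, had 85.9, 69.9 and 56.6 CPM and 6.75, 4.71 and 7.25 CPM (-3.47 ± 0.33, edgeR adjusted p = 1.48e-13). Klf4 was below every untreated group (adjusted p = 3.71e-08 for the weakest of the 3 edgeR tests). Mycn and Wif1 were not, with 0.00184 and 0.238: Mycn had 14.6 ± 4.00 CPM in T14-RA, and Wif1 13.5 ± 6.24 CPM in T0 (SD, n = 3).

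The 155 genes above every untreated group had a median log2 fold change over T7-RA of 1.44, and a median of 0.23 for T14-RA over T7-RA. By lowest p they were led, beside Cyp26b1, Dhrs3 and Itgax, by Gdpd5, Ldhb, Cp, Itga7, Sat1, Lipa, App and Gm2a. Gdpd5, a membrane phosphodiesterase, had 33.4, 28.2 and 23.2 CPM in T7-RA, 25.2, 19.5 and 27.1 CPM in T14-RA and 425, 453 and 437 CPM in T14+RA (log2 fold change 3.93 ± 0.15, edgeR adjusted p = 1.84e-31). Cp, ceruloplasmin, the copper oxidase that handles iron, had 34.6, 32.3 and 34.9, 70.9, 49.6 and 57.6 and 423, 412 and 473 CPM in the same groups (3.67 ± 0.16). Itga7, the laminin-binding integrin chain of muscle, had 439, 414 and 444, 804, 744 and 799 and 2399, 2340.1 and 2272 CPM (2.43 ± 0.09). In each of these genes the lowest T14+RA culture was above the highest untreated culture. Lipa and Gm2a, a lipase and an activator protein of the lysosome, stood at 187 ± 35.7 and 139.7 ± 8.22 CPM in T7-RA and at 658 ± 25.0 and 505 ± 28.2 CPM in T14+RA. Sat1, the enzyme that acetylates polyamines, and App, the amyloid precursor protein, had log2 fold changes of 2.36 ± 0.12 and 1.34 ± 0.09. The edgeR adjusted p was 2.66e-20, 7.54e-21, 2.14e-25 and 1.07e-19 for Lipa, Gm2a, Sat1 and App.

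The 85 genes below every untreated group had a median log2 fold change over T7-RA of -1.39, and of -0.17 for T14-RA over T7-RA. Beside Ccn5, Postn and the collagen VI chains they were led by Vim, Osr1, Eln, Rnd3, the lincRNA AABR07021544.1, Thbs1, Cav1 and Emp1. Vim, vimentin, the intermediate filament of mesenchymal cells and myoblasts, had 2555, 2543 and 2344 CPM in T7-RA, 1905, 2138 and 1966 CPM in T14-RA and 928, 1088 and 865 CPM in T14+RA (log2 fold change -1.37 ± 0.09, edgeR adjusted p = 5.77e-20). Eln, tropoelastin, had 1047, 961 and 890.3, 646, 705 and 638 and 323, 327 and 221 CPM (-1.72 ± 0.11, edgeR adjusted p = 5.98e-21). Osr1, a zinc finger factor of mesoderm, had 245, 271 and 216, 175, 177 and 195 and 49.2, 59.7 and 50.8 CPM (-2.21 ± 0.16, edgeR adjusted p = 8.27e-19). By group mean the 3 genes were lower in T14-RA than in T7-RA, and they stood lowest in T14+RA without overlap. Thbs1, thrombospondin 1, Cav1, caveolin 1, Rnd3, an atypical small GTPase that loosens actin, and Emp1, a membrane protein, had log2 fold changes of -1.26, -1.57, -1.50 and -1.81 (edgeR adjusted p = 4.27e-18, 3.24e-17, 1.43e-14 and 2.26e-17). AABR07021544.1 stood at 196 ± 20.6 CPM in T7-RA, 198 ± 10.0 in T14-RA and 62.1 ± 6.16 in T14+RA (SD, n = 3).

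The gene lists are described by how many members were called, to be read against 4.02% higher and 3.89% lower over all genes, and by their median log2 fold change, which is -0.00 over all genes. The lists were not tested as sets. Most list counts were lower with limma on quantile-normalized values, where the number of mitosis genes called lower was 15, of replication genes 8 and of cholesterol and fatty acid synthesis genes 1, and where the number called higher was 4 for the thin filament, 5 for the Z-disc, 2 for muscle energy buffering, 1 for the respiratory chain, 3 for fatty acid oxidation and 2 for glycolysis. Where a list has 0 calls in a direction, DESeq2 and limma also gave 0 there, except that limma-voom called 1 basement membrane gene higher. At an unadjusted edgeR p under 0.05 the direction without calls held 2 genes of the retinoid list, 3 of the receptors, 4 of collagen VI and basement membrane, 1 of muscle energy buffering, 1 of the interferon and MHC class I list and 0 of the mitosis, replication, thin filament, neuromuscular, respiratory chain and fatty acid oxidation lists.

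**Figure D3:**
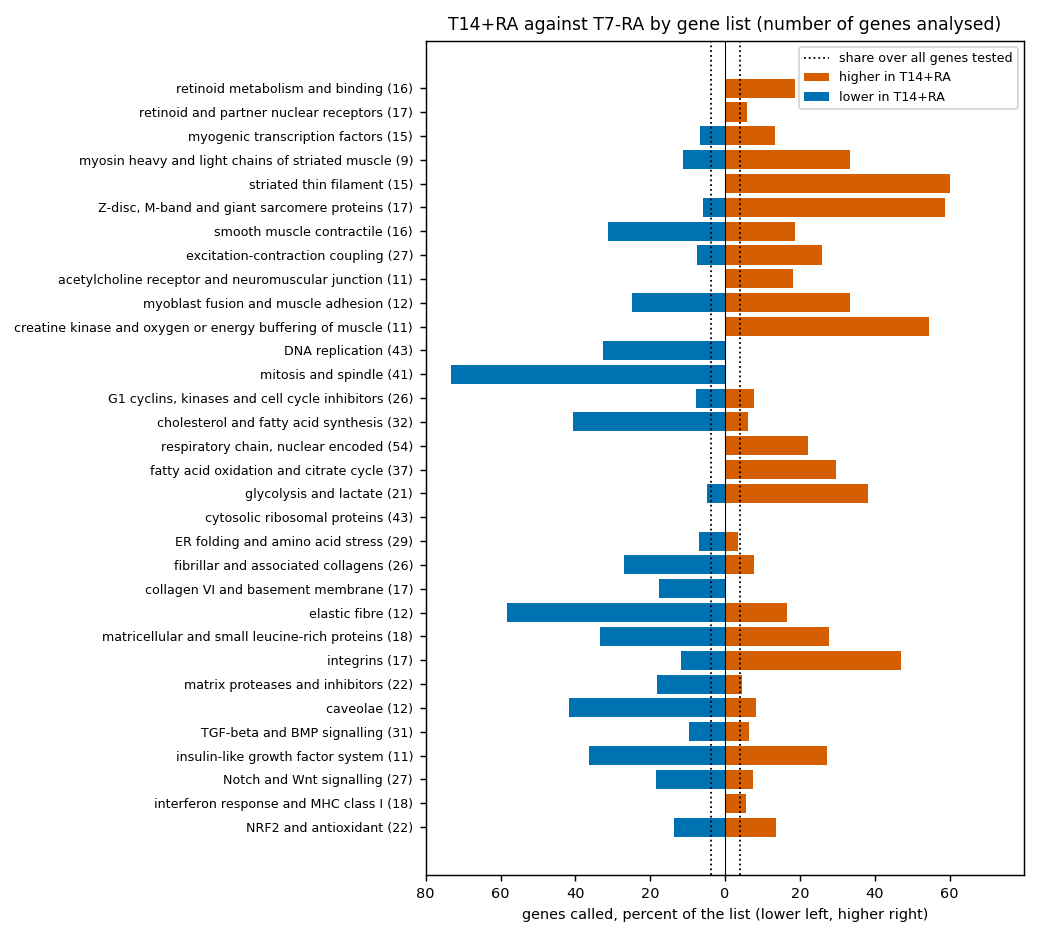
Percent of the analysed genes of each list called higher (orange, to the right) or lower (blue, to the left) in T14+RA than in T7-RA, with the number of genes in brackets. Dotted lines mark the shares over all genes, 4.02% higher and 3.89% lower. The mitosis list reaches furthest to the left and the thin filament and Z-disc lists furthest to the right.

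Genes of mitosis and DNA replication were lower where they were called. In the list of mitosis and spindle genes 0 of the 41 genes analysed were higher and 30 lower (median log2 fold change -1.32), and in the list of DNA replication 0 of the 43 genes analysed were higher and 14 lower (median -0.99). The mean log2(CPM + 1) of the mitosis list was 6.13 to 6.25 over the T7-RA cultures, 5.19 to 5.28 over T14-RA and 4.89 to 5.07 over T14+RA. The replication list had 5.46 to 5.56, 4.81 to 4.98 and 4.57 to 4.66 in the same order. In both lists the 3 groups did not overlap and T14+RA was lowest, although 0 members of either list were called below every untreated group.

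Top2a, topoisomerase IIα, which untangles chromosomes, had 249, 249 and 266 CPM in T7-RA, 121, 124 and 117 CPM in T14-RA and 95.5, 91.2 and 109 CPM in T14+RA (log2 fold change -1.38 ± 0.13, edgeR adjusted p = 2.7e-13). Cdk1, the kinase that starts mitosis, had 154, 125 and 123, 54.1, 70.8 and 66.0 and 44.4, 37.7 and 59.8 CPM (-1.53 ± 0.18, edgeR adjusted p = 1.5e-10). Cenpf, a kinetochore protein, and Anln, the cleavage furrow protein anillin, had log2 fold changes of -1.66 ± 0.16 and -1.77 ± 0.18 (edgeR adjusted p = 1.14e-12 and 5.15e-12). All 4 were lowest in T14+RA by group mean. Of the replication genes, Mcm2, Mcm5 and Mcm6, subunits of the DNA helicase, had -1.20, -1.18 and -1.14, and Tk1, thymidine kinase, -1.40 (edgeR adjusted p = 9.4e-09, 2.64e-08, 8.48e-09 and 8.2e-09). The regulators of the G1 phase were mostly not called: 2 of the 26 genes analysed were higher and 2 lower (median -0.07). Gadd45a, a stress and growth arrest protein, had 83.5, 63.2 and 85.7 CPM in T7-RA, 192, 179 and 191 CPM in T14-RA and 489, 605 and 517 CPM in T14+RA (2.78 ± 0.14, edgeR adjusted p = 1.69e-26) and lay above every untreated group. The other 3 calls of that list were not stable to leaving out a library. Btg2 (0.84) lost its call without any 1 of the day 7 and day 14 libraries except T7+RA replicate 1. Gadd45g (-1.01) lost it without T7-RA replicate 1 or 2 or T14+RA replicate 1 or 3, and Cdkn1b (-0.74) without T7-RA replicate 2 or 3 or T14+RA replicate 2 or 3.

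**Figure D4:**
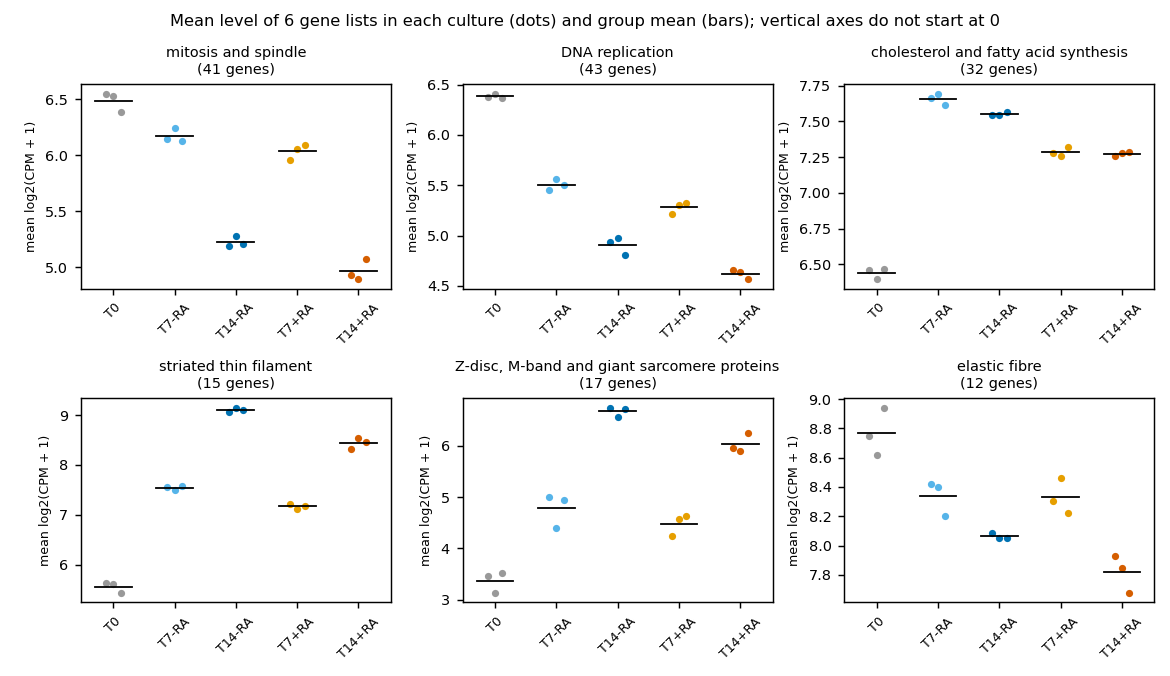
Mean log2(CPM + 1) of 6 gene lists in each culture (dots) with the group mean (bars), by group; the vertical axes do not start at 0. T14+RA is lowest for mitosis, DNA replication and elastic fibre, and lies between T7-RA and T14-RA for the thin filament and Z-disc lists.

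Sarcomere genes rose above T7-RA in part. Of the thin filament genes, 9 of the 15 genes analysed were higher and 0 lower (median log2 fold change 0.96), and of the Z-disc, M-band and giant sarcomere proteins, 10 of the 17 genes analysed were higher and 1 lower (median 1.54). When at least 10 counts in every library were required, 5 of the 17 Z-disc genes were left, with a median of 0.12. The thin filament list had a mean log2(CPM + 1) of 7.50 to 7.58 in T7-RA, 8.32 to 8.54 in T14+RA and 9.07 to 9.15 in T14-RA. The Z-disc list had 4.40 to 4.99, 5.90 to 6.26 and 6.57 to 6.75. For both lists every T14+RA culture lay above every T7-RA culture and below every T14-RA culture. None of their members was beyond every untreated group.

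Tnnc2, the calcium sensor of fast muscle, had 335, 344 and 322 CPM in T7-RA, 968, 1235 and 1032 CPM in T14+RA and 1049.8, 1050.3 and 969 CPM in T14-RA (log2 fold change 1.69 ± 0.10, edgeR adjusted p = 1.56e-21). Tnni1, the slow skeletal inhibitory troponin, had 56.1, 67.2 and 79.9, 253, 281 and 263 and 389, 429 and 408 CPM (1.98 ± 0.14, edgeR adjusted p = 2.42e-18). Ldb3, a Z-disc protein, had 66.8, 43.0 and 50.8, 249.8, 261 and 355 and 221, 175 and 227 CPM (2.39 ± 0.18, edgeR adjusted p = 9.79e-14). Against T14-RA, Tnni1 was lower, by -0.62 on the log2 scale (edgeR adjusted p = 2.43e-05). Tnnc2 and Ldb3 did not pass there, with log2 fold changes of 0.07 (95% interval -0.12 to 0.26) and 0.45 (0.14 to 0.75). Acta1, skeletal α-actin, had 693, 650.4 and 794 CPM in T7-RA and 1453, 1748 and 1764 CPM in T14+RA (1.21 ± 0.10, edgeR adjusted p = 2e-15), against 3258 ± 154 CPM in T14-RA. Tnnt3, Xirp1 and Unc45b, a fast troponin T, an actin-binding repeat protein and a myosin chaperone, had log2 fold changes of 1.26, 1.59 and 1.54 (edgeR adjusted p = 4.18e-16, 6.3e-10 and 4.05e-10).

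The myosin genes differed among themselves. Of the list of striated muscle myosins 3 of the 9 genes analysed were higher and 1 lower (median 0.41). Myl1, an essential light chain of fast muscle, had 4.77, 1.34 and 2.90 CPM in T7-RA, 60.8, 67.6 and 58.0 CPM in T14+RA and 177, 193 and 147 CPM in T14-RA (4.25 ± 0.37, edgeR adjusted p = 1.6e-14). Mybph, a myosin-binding protein, had 99.0, 87.4 and 106, 386, 419.6 and 381 and 513, 551 and 540.2 CPM (2.02 ± 0.13, edgeR adjusted p = 7.6e-20). Myh4, a fast heavy chain, went the other way, with 196, 155 and 193 CPM in T7-RA, 82.0, 92.7 and 119.6 CPM in T14+RA and 491, 351 and 461 in T14-RA (-0.92 ± 0.16, edgeR adjusted p = 1.34e-05). Without T14+RA replicate 1 the call was lost (edgeR adjusted p = 0.00156). In the fit of all libraries Myh4 was also the only member of this list below every untreated group, T0 included. The heavy chain genes are close copies of each other, so reads may be shared between them.

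A set of genes, most of them of muscle, stood within 2 times of the day 7 untreated level after 14 days with retinoic acid. By rule these are the 12 genes with the greatest change between T7-RA and T14-RA in a pool of 126. Genes of the pool were called between those groups and reached 20 CPM in either. Their 95% interval for T14+RA over T7-RA lay within 1 on the log2 scale, which allows smaller differences. Between T14-RA and T7-RA 342 genes were called (2.95%). The rule used the compared groups, so the closeness of these genes is a description. Actc1, cardiac α-actin, had 28.6, 43.0 and 30.5 CPM in T7-RA, 19.3, 47.1 and 32.6 CPM in T14+RA and 239, 234 and 276 CPM in T14-RA. Chrna1, the α chain of the muscle acetylcholine receptor, had 21.5, 20.2 and 36.3, 15.4, 25.1 and 38.1 and 151, 182 and 146 CPM. Thbs2, thrombospondin 2, had 76.3, 79.3 and 103, 83.0, 97.4 and 107 and 327, 312 and 266 CPM. In all 3 the T14+RA and T7-RA cultures overlapped while every T14-RA culture was far above both, and the intervals of the log2 fold change over T7-RA were -0.66 to 0.40, -0.73 to 0.57 and -0.23 to 0.50.

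The other 9 were Myom2, Myl4, Mylpf, Myh3, Klhl41, Hrc, Lmod3, Ptprv and AABR07005775.1. Most are sarcomere genes: Myom2 of the M-band, Myl4 and Mylpf light chains, Myh3 the embryonic heavy chain, Lmod3 a nucleator of thin filaments and Klhl41 a partner of nebulin, while Hrc binds calcium in the sarcoplasmic reticulum. Their log2 fold changes over T7-RA ran from 0.35 for Lmod3 to 0.48 for Myh3, and those of T14-RA over T7-RA from 1.52 for Ptprv to 2.67 for Myom2. Myh3 was itself called, with 1263, 1261 and 1492 CPM in T7-RA, 1747, 1757 and 2119 CPM in T14+RA and 4937, 5021 and 5209 CPM in T14-RA (0.48 ± 0.10, edgeR adjusted p = 7.76e-05). Its call was lost without T7-RA replicate 1 or 2 or T14+RA replicate 3, with edgeR adjusted p between 0.00244 and 0.00317. Mylpf was just short of the threshold (edgeR adjusted p = 0.00139) at 1022, 989 and 1126, 1212, 1509 and 1459 and 4142, 4302 and 4072 CPM. It was called with relative log expression factors, with the replicate block, and without T0 replicate 2 or 3, T7+RA replicate 3 or T14+RA replicate 1.

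**Figure D5:**
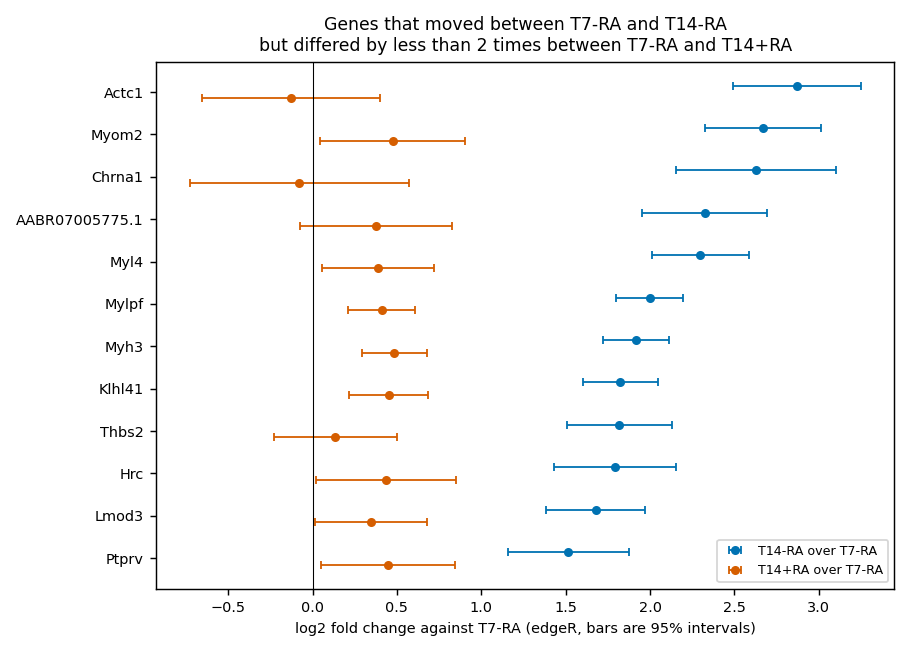
Log2 fold change against T7-RA with its 95% interval (edgeR) for the 12 genes that moved most between T7-RA and T14-RA but differed by less than 2 times between T7-RA and T14+RA. Blue is T14-RA and orange T14+RA; the blue intervals lie above 1 and the orange ones below it.

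Myogenic transcription factors, which switch on the muscle programme, were mostly not called: 2 of the 15 genes analysed were higher and 1 lower (median 0.13). Myod1 had a log2 fold change of -0.43 (95% interval -0.82 to -0.04) and Myog of 0.39 (0.18 to 0.59), with edgeR adjusted p of 0.128 and 0.00416. For both master factors a change of more than 2 times was outside the interval. Tead4 (0.86) and Id3, an inhibitor of these factors (-0.76), were called but lost the call in DESeq2 and without any of several libraries. These were T7-RA replicate 1, 2 or 3 or T14+RA replicate 1 or 2 for Tead4, and T7-RA replicate 1 or 2 or T14+RA replicate 1 or 3 for Id3.

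Of the genes of excitation-contraction coupling, 7 of the 27 genes analysed were higher and 2 lower (median 0.44). The number higher was 3 without T7-RA replicate 1 or 2 and 4 without T14+RA replicate 1 or 3. Trdn, triadin, an anchor of the calcium release channel, had 1.19, 2.69 and 1.45 CPM in T7-RA, 30.0, 26.6 and 33.9 CPM in T14-RA and 66.6, 66.0 and 59.8 CPM in T14+RA (5.05 ± 0.44, edgeR adjusted p = 1.08e-14). Atp2a2, the calcium pump SERCA2, had 880.4, 808 and 906, 1392, 1344 and 1341 and 1625, 1548 and 1813 CPM (0.94 ± 0.09, edgeR adjusted p = 2.86e-13). For these genes the highest mean was in T14+RA. Ryr1, the calcium release channel itself, had its highest mean in T14-RA (330.2 ± 54.5 CPM) and rose from 48.7 ± 20.2 to 119 ± 28.6 CPM between the compared groups. The change of Ryr1 (1.31 ± 0.22, edgeR adjusted p = 2.95e-05) missed the threshold without T14+RA replicate 1. Itpr3, an IP3 receptor, fell (-1.05 ± 0.16, edgeR adjusted p = 3.67e-07).

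Of the acetylcholine receptor and neuromuscular junction genes 2 of the 11 genes analysed were higher and 0 lower (median -0.02): Ncam1, a cell adhesion molecule of developing muscle and nerve (506 ± 11.9 to 981 ± 118 CPM), and Chrnd, the receptor's δ chain (70.8 ± 17.1 to 146 ± 6.26 CPM). Of the fusion and adhesion genes 4 of the 12 genes analysed were higher and 3 lower (median 0.00). Those named by lowest p were Itga7 and Ncam1, both higher, and Myof, myoferlin (-0.79 ± 0.10), and Cdh15, M-cadherin (-0.81 ± 0.11), both lower (edgeR adjusted p = 9.03e-10 and 1.89e-08). Genes that buffer muscle energy were higher, 6 of the 11 analysed and none lower, with a median of 1.27. With at least 10 counts required in every library 4 of these 11 genes were left, and the median was 0.41. Pygm, muscle glycogen phosphorylase, had 16.7, 26.9 and 20.3 CPM in T7-RA, 259, 287 and 246 CPM in T14-RA and 134, 159 and 189 CPM in T14+RA (2.88 ± 0.23, edgeR adjusted p = 7.27e-15). Ckm, muscle creatine kinase, had 11.9, 5.38 and 21.8, 54.1, 85.0 and 50.8 and 58.8, 73.9 and 79.8 CPM (2.42 ± 0.31, edgeR adjusted p = 9.4e-09). Both groups at day 14 were above T7-RA in these genes. Slc6a8, the creatine carrier, was above every untreated group (141 ± 17.0 CPM in T14-RA, 251 ± 29.7 CPM in T14+RA).

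Energy metabolism genes were called higher more often than lower in T14+RA. Of the nuclear genes of the respiratory chain 12 of the 54 genes analysed were higher and 0 lower (median 0.51), and without T7-RA replicate 1 the number higher was 7. At an unadjusted edgeR p under 0.05, 45 of the 54 were higher, whereas DESeq2 at the adjusted threshold called 8. Of the genes of fatty acid oxidation and the citrate cycle 11 of the 37 genes analysed were higher and 0 lower (median 0.56), and of glycolysis and lactate 8 of the 21 genes analysed were higher and 1 lower (median 0.66). Cox6a2, the heart and muscle form of a cytochrome oxidase subunit, had 10.7, 17.5 and 4.36 CPM in T7-RA, 79.3, 86.8 and 86.4 CPM in T14-RA and 100.3, 152 and 149 CPM in T14+RA (3.55 ± 0.29, edgeR adjusted p = 2.48e-14). Atp5f1b, the catalytic subunit of ATP synthase, had 1707, 1666 and 1717, 1974, 1975 and 1959 and 2662, 2984 and 2656 CPM (0.71 ± 0.08, edgeR adjusted p = 6.4e-10). Hadhb, of the mitochondrial enzyme that shortens long fatty acids, had 377, 413 and 452, 512, 567 and 519.9 and 821, 889.5 and 939 CPM (1.09 ± 0.10, edgeR adjusted p = 1.21e-13). Atp5f1b and Hadhb lay above every untreated group, whereas Cox6a2 did not.

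Ldhb, the lactate dehydrogenase chain of heart, had 179, 194 and 157 CPM in T7-RA, 223, 218 and 230.3 CPM in T14-RA and 1026, 1146 and 963 CPM in T14+RA (2.56 ± 0.11, edgeR adjusted p = 6.62e-29). Hk2, the hexokinase of muscle, had 142, 101 and 109, 219, 133 and 171 and 416, 391 and 464 CPM (1.84 ± 0.13, edgeR adjusted p = 3.42e-18). Both were above every untreated group. Genes of cholesterol and fatty acid synthesis went the other way, as 2 of the 32 genes analysed were higher and 13 lower (median -0.61). The mean log2(CPM + 1) of that list was 7.61 to 7.69 in T7-RA, 7.54 to 7.56 in T14-RA, 7.26 to 7.28 in T14+RA and 6.40 to 6.47 in T0. T14+RA was thus below both later untreated groups and above T0. Hmgcs1 and Cyp51, enzymes of cholesterol synthesis, stood at 669.7 ± 20.6 and 722 ± 2.51 CPM in T7-RA and 411 ± 18.2 and 425 ± 27.0 CPM in T14+RA. Dhcr7, its last enzyme, was lower too (-1.13 ± 0.17, edgeR adjusted p = 2.29e-07). Scd, which makes monounsaturated fatty acids, rose instead, from 543, 464 and 593 CPM to 1019, 1048 and 1196 CPM (1.03 ± 0.10, edgeR adjusted p = 1.09e-12).

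Matrix genes moved in both directions. Of the elastic fibre genes 2 of the 12 genes analysed were higher and 7 lower (median -0.60). Fbln5 and Mfap5, an assembly protein and a microfibril protein of elastic fibres, had log2 fold changes of -1.29 ± 0.11 and -1.72 ± 0.22 (edgeR adjusted p = 1e-14 and 2.74e-09). Ltbp1, which stores latent TGF-β in the matrix, rose from 423, 458 and 446 CPM to 1214, 1133 and 1158 CPM (1.40 ± 0.10, edgeR adjusted p = 5.63e-19). Of the fibrillar collagens and their enzymes 2 of the 26 genes analysed were higher and 7 lower (median -0.04). Col11a1 was higher, at 137, 167 and 148 CPM in T7-RA, 107, 128 and 144 CPM in T14-RA and 590.4, 413 and 468 CPM in T14+RA (1.72 ± 0.13, edgeR adjusted p = 5.2e-18). Loxl2, a collagen cross-linking oxidase, was also higher (1.21), while Col8a2 (-1.93) and P4ha3, a prolyl hydroxylase (-2.11), were lower. Of collagen VI and basement membrane 0 of the 17 genes analysed were higher and 3 lower (median -0.22), and the lower ones were both collagen VI chains and Nid2, nidogen 2 (-1.17 ± 0.14).

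Of the matricellular and small leucine-rich proteins 5 of the 18 genes analysed were higher and 6 lower (median -0.50). Dcn, decorin, which binds collagen fibrils, had 3.58, 2.69 and 16.0 CPM in T7-RA, 56.5, 42.5 and 52.5 CPM in T14-RA and 96.5, 154 and 109 CPM in T14+RA (4.03 ± 0.32, edgeR adjusted p = 1.17e-14). Spp1, osteopontin, had 54.9, 79.3 and 74.1, 48.0, 42.5 and 44.0 and 246, 255 and 252 CPM (1.86 ± 0.15, edgeR adjusted p = 5.16e-16). Both exceeded every untreated group. Dcn is also on the fibroblast marker list, of which 5 of 10 symbols were analysed and 1 was called. The others of that list were Thy1 (225 to 251 CPM in T7-RA, 147 to 206 CPM in T14+RA), Lum, Col1a1 and Col3a1, and their part in the Dcn value was not tested.

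Integrins, the matrix receptors, were more often higher: 8 of the 17 genes analysed were higher and 2 lower (median 0.48). The 2 lower calls became 1 without T7-RA replicate 1 and 0 without T7-RA replicate 3 or T14+RA replicate 2. Itga8, a fibronectin-binding chain, had 8.35, 20.2 and 8.71 CPM in T7-RA, 52.9, 37.2 and 32.2 CPM in T14-RA and 156, 124 and 169 CPM in T14+RA (3.58 ± 0.28, edgeR adjusted p = 1.66e-14), and Itga3, a laminin-binding chain, had 1.26 ± 0.14 (8.72e-11). Of the caveolae genes, which coat small pits of the cell membrane, 1 of the 12 genes analysed was higher and 5 lower (median -0.25). Cavin1 had 855, 968 and 948 CPM in T7-RA and 494, 522 and 508 CPM in T14+RA (-0.86 ± 0.10, edgeR adjusted p = 3.7e-11), and Cavin2 -0.71 ± 0.11. Ehd4, a membrane-shaping ATPase related to a caveolar one, was the member that rose (1.32 ± 0.11, edgeR adjusted p = 4.31e-15).

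Signalling genes were called in both directions. Of Notch and Wnt signalling 2 of the 27 genes analysed were higher and 5 lower (median -0.25), and the number higher was 1 without any of T7-RA replicates 1 to 3 or T14+RA replicate 1 or 3. Notch3, a receptor of vascular and muscle precursor cells, had 118, 102 and 102 CPM in T7-RA, 84.1, 69.1 and 59.3 CPM in T14-RA and 15.4, 11.0 and 9.06 CPM in T14+RA (-3.09 ± 0.26, edgeR adjusted p = 2.74e-15). Jag1, a Notch ligand, fell as well (-1.66 ± 0.21, edgeR adjusted p = 4.42e-09), and both were below every untreated group. Sfrp4, a secreted Wnt-binding protein, had 8.35, 6.72 and 4.36 CPM in T7-RA and 83.0, 78.6 and 103 CPM in T14+RA (3.69 ± 0.33, edgeR adjusted p = 1.43e-14). Of the insulin-like growth factor system 3 of the 11 genes analysed were higher and 4 lower (median -0.25), and the number lower was 2 without any 1 of T7-RA replicates 1 to 3 or T14+RA replicate 1. Igfbp5, a binding protein that rises in muscle differentiation, had 568, 554 and 716 CPM in T7-RA, 1392, 1199 and 1461 CPM in T14-RA and 3013, 2722 and 3599 CPM in T14+RA (2.35 ± 0.12, edgeR adjusted p = 6.54e-16). Igf2, the growth factor, had 1767, 1598 and 2067, 2928, 2954 and 2985 and 1236, 1092 and 1100.4 CPM (-0.66 ± 0.09, edgeR adjusted p = 4.73e-08). Igfbp5 thus had its highest values in T14+RA, and Igf2 its lowest of the 3.

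Of TGF-β and BMP signalling 2 of the 31 genes analysed were higher and 3 lower (median -0.18). Fst, follistatin, which binds activin and myostatin, had 172, 151 and 186 CPM in T7-RA, 129.7, 113 and 137 CPM in T14-RA and 48.2, 37.7 and 43.5 CPM in T14+RA (-1.94 ± 0.17, edgeR adjusted p = 2.25e-14). The ligands Tgfb2 and Tgfb3 were higher (0.72 ± 0.11 and 0.97 ± 0.10, edgeR adjusted p = 2.08e-07 and 1.7e-11). Among smooth muscle contractile genes 3 of the 16 genes analysed were higher and 5 lower (median -0.25). Smtn, smoothelin (-1.54 ± 0.18), and Actg2, enteric γ-actin (-0.93 ± 0.12), were lower and Mylk, the light chain kinase (1.51 ± 0.15), higher (edgeR adjusted p = 1.19e-10, 3.81e-09 and 2.88e-13).

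The labelled heart origin was checked against markers. Of 15 cardiac markers 5 were among the genes analysed, and Myh6, Myh7, Myl2, Myl7, Tnni3, Nppa, Nppb, Ryr2, Nkx2-5 and Tbx5 were not. Tnnt2, cardiac troponin T, had 369, 409 and 360.2 CPM in T7-RA and 607, 680.5 and 598 CPM in T14+RA (0.73 ± 0.10, edgeR adjusted p = 5.83e-08), and Actc1 has been given above. Pln, phospholamban, was also called (2.70 ± 1.53 to 16.7 ± 5.06 CPM) but lost the call without T7-RA replicate 1 or 2 or T14+RA replicate 1 or 2. Of 15 skeletal muscle markers 14 were analysed, with 7 higher and 1 lower. Of the markers of other cell types, those analysed were 7 of 7 for smooth muscle, 1 of 7 for endothelium, 2 of 8 for adipocytes, 2 of 9 for cartilage and bone, 3 of 10 for nerve and glia and 1 of 6 for epithelium. Of these, 3 smooth muscle markers were called lower, and none of the others was called in the edgeR, DESeq2 or limma fits, with 2 cartilage and bone markers and 1 nerve and glia marker lower at an unadjusted edgeR p under 0.05.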

How the data were processed

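Raw read counts per gene were deposited by the authors for 15 libraries made with a stranded mRNA kit, after mapping with HISAT2 and counting with featureCounts. The submitters' processing notes name the build Rnor 6.0. Tool versions, and whether the counting used strand, are not given in the sources used here. The deposited table holds genes whose counts sum to more than 20 over the libraries. Groups and replicate numbers came from the labels, and the study describes the replicates as biological.

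Counts were fitted for all 11574 genes and 15 libraries with edgeR 4.0.16 (R 4.3.3), with TMM normalization, 1 mean for each of the 5 groups and the quasi-likelihood test. P-values were adjusted by Benjamini-Hochberg, and an adjusted p under 0.001 was called, as in the study's methods. Beyond every untreated group means the largest p of 3 contrasts in 1 direction. A group at 0 counts was set to a floor of 3 counts over its libraries, and for 1 to 3 counts a ratio with an exact 95% interval is given. Floors and intervals cover counting error only. The script was tested on simulated counts in which 200 genes were changed by 1 on the log2 scale. Of these, 39.5% were called, and 10.4% of those below the median count. A missing call is therefore no evidence that a gene did not change.

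Named genes were, among called genes of at least 20 CPM in the higher group and without overlap, the 12 with the largest fold change each way, the 12 of lowest p beyond the untreated groups each way, up to 4 called members of each list by lowest p with all retinoid genes, receptors and myogenic factors, and 12 genes near the T7-RA level. Some of these are not reported here. Genes given beyond these are Cd14, Thy1 and the names of other list members. Members, lists and rules were chosen with earlier results of these data known. Alternatives were DESeq2 1.42.0, limma 3.58.1 in 3 forms, other normalizations, filters and thresholds, a 1.5-fold minimum, an additive model, the 6 libraries alone, thinned counts, a replicate block and each library left out. Replicate numbers were not used as pairs in the main fit. No library was left out of the main fit. Within each group the counts of all replicates differed by more than sampling noise, so none looked like a copy of another. That spread is no measure of library quality.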

Additional observations from a re-analysis of the deposited data

How the results depend on the processing

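Depth limits genes of low level, and T14+RA and T7-RA differ in time and treatment together. The counts moved most with a 1.5-fold minimum, quantile normalization and the threshold. At an adjusted p under 0.05, 2060 genes changed (1031 higher, 1029 lower) and 485 lay beyond every untreated group. limma on quantile-normalized log2(count + 1) gave 317 (151 and 166) and 62, and edgeR's test against 1.5-fold gave 293 (166 and 127). The cause of the lower count with quantile normalization was not tested. DESeq2 gave 694 changed genes, limma-voom 825, limma-trend 737, relative log expression factors 922, library size only 926, filtering by group 914, 10 counts in every library 686, the 6 libraries alone 945, an additive model 845 and thinned counts 739. Leaving out each library in turn gave 677 to 1069 changed genes, 358 to 554 higher, 310 to 515 lower and 175 to 271 beyond every untreated group. The number changed was 1069 without T0 replicate 2 and 1004 without T0 replicate 3. Those libraries are not in the contrast but enter the fit, where all groups share 1 estimate of the spread. Of the 141 called genes chosen by the naming rule, none changed direction in any alternative that tested it, and 49 were not tested when 10 counts in every library were required. The alternatives reuse the same counts and the genes were chosen by their calls, so a reversal was unlikely from the start. Quantile-normalized limma lost 43 of the 141 calls and the 1.5-fold test 44, of which 34 were lost in both. Those lost in both include Atp5f1b, Btg2, Cavin2, Cdh15, Cdkn1b, Chrnd, Dhcr7, Gadd45g, Gstp1, Hmgcs1, Id3, Igf2, Itpr3, Myh3, Myh4, Myof, Ncam1, Nr2f1, Pln, Ryr1, Slc7a5, Tead4, Tgfb2, Tnnt2 and Trib3. Acta1, Ckm, Col6a2, Pygm, Rdh5 and Scd were lost with quantile normalization, and Actg2, Cavin1, Cyp51, Mcm5, Mcm6, Sod2 and Tgfb3 with the 1.5-fold minimum. DESeq2 lost 7, limma-voom 4, limma-trend 8 and library size 1. The additive model lost the calls of Nid2, Itga3, Scd, Gstp1, Igf2, Myh4 and Pln, and thinned counts those of Myocd, Cdkn1b, Gadd45g, Id3 and Ckmt2.

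The replicate block gave 1019 changed genes, among them all 915. Correlations of deviations between same-numbered T14+RA and T7-RA cultures were 0.03, 0.19 and 0.21, beside a mean of -0.07 for different numbers. The sources used here do not say that the numbers mark pairs, and the main fit did not use them so. A weak pairing is not excluded. The list medians of myogenic factors, acetylcholine receptor, fusion, G1, ribosomal, ER stress, cardiac and fibroblast genes did not keep their sign in every alternative. With 10 counts required in every library, which leaves fewer genes in each of these lists, the median moved to 0.12 for the Z-disc list, 0.41 for muscle energy buffering, 0.15 for excitation-contraction coupling and 0.39 for skeletal muscle markers.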

Other observations

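Further gene lists are given here, to be read against 4.02% higher and 3.89% lower over all genes. In the interferon and MHC class I list 5.56% were called and in the ER list 10.3%, beside 7.91% of all genes. These 2 lists are thus near the share over all genes. Cytosolic ribosomal proteins had no call: 0 of 43 genes in the edgeR, DESeq2 and limma fits, and 1 was lower at an unadjusted edgeR p under 0.05. The median log2 change of the list was -0.02. Of the interferon and MHC class I genes 1 of the 18 genes analysed was higher and 0 lower (median 0.40), and the gene called was B2m, the light chain of MHC class I, at 441, 464 and 487 CPM in T7-RA, 830.0, 770.4 and 729.8 CPM in T14-RA and 1080.4, 1165 and 919 CPM in T14+RA (1.19 ± 0.10 on the log2 scale). The 3 groups did not overlap for B2m. Of ER folding and amino acid stress genes 1 of the 29 genes analysed were higher and 2 lower (median 0.05). Slc7a11, the cystine carrier that feeds glutathione synthesis, had 66.8, 69.9 and 82.8 CPM in T7-RA, 40.8, 33.7 and 50.8 CPM in T14-RA and 11.6, 14.14 and 30.8 CPM in T14+RA (-2.06 ± 0.27), and Slc7a5, a carrier of large amino acids, had -0.84 ± 0.13. Trib3 was the member called higher (1.03), and it lost its call without any 1 of T7-RA replicates 1 to 3 or without T14+RA replicate 1.

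Of the NRF2 and antioxidant genes 3 of the 22 genes analysed were higher and 3 lower (median 0.10). Nqo1, a quinone reductase, had 264, 261 and 272 CPM in T7-RA, 179, 227 and 198 CPM in T14-RA and 112, 81.7 and 59.8 CPM in T14+RA (-1.58 ± 0.15) and lay below every untreated group, while Gstp1, a glutathione transferase, lay above them (0.83 ± 0.11). Sod2, the mitochondrial superoxide dismutase, was higher as well (1.04 ± 0.15). Of the matrix proteases and their inhibitors 1 of the 22 genes analysed was higher and 4 lower (median -0.10). Adam12, a metalloprotease of fusing myoblasts, had 243, 189 and 179 CPM in T7-RA, 114, 51.4 and 94.8 CPM in T14-RA and 53.1, 28.3 and 45.3 CPM in T14+RA (-2.23 ± 0.19). Adamts1, a protease of versican, fell although its mean in T14-RA was above T7-RA, with 245, 237 and 260.0 CPM in T7-RA, 333, 322 and 340.4 CPM in T14-RA and 106, 113 and 116 CPM in T14+RA (-1.15 ± 0.13). The single protease gene called higher lost its call without T7-RA replicate 3 or T14+RA replicate 1.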
